A study of Rattus norvegicus with 12 samples.

Results

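The immediate early genes described here are 10 genes taken by name: the AP-1 subunits Fos, Fosb, Jun and Junb, the zinc-finger factors Egr1 and Egr2, the stress factor Atf3, the nuclear regulator Ier2, the nuclear receptor Nr4a1 and the phosphatase Dusp1. All 10 were among the 11211 genes tested, each through 1 probe. RNA from the left ventricle of male Sprague-Dawley rats was measured on 12 one-colour Agilent arrays, 3 for each of 4 groups. Every rat, controls included, ate chow with 60% fructose for 8 weeks, so no group had a fructose-free diet. The normal sodium group received 0.64% NaCl and the low sodium group less than 0.01%. The other two groups, normal sodium with AngII and low sodium with AngII, had the same diets and were given angiotensin II under the skin at 200 ng per kg per min over the last 4 weeks. The labels state no age and do not say whether an array holds 1 animal or a pool, so p-values measure only the spread between these samples.

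Immediate early genes are transcribed within minutes of a stimulus from factors already present in the cell, and their RNAs are short-lived. Fos and Jun proteins pair to form AP-1, which passes the first signal on to slower genes. In heart muscle, stretch, angiotensin II, catecholamines, ischaemia and handling of the tissue are known inducers, through kinases that act on serum response factor at CArG boxes and on CREB at cAMP response elements. The ventricles here were taken after weeks of infusion, long after a first response.

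Promoters of 7 of the 10 genes were in the RefSeq table (build GRCr8; 250 bases before to 50 after the start). A CArG box, searched by name on both strands, lay in the promoters of Egr1 (first bases at -105 and -83) and Egr2 (at -83), against 1.64% of all 33469 promoters. A cAMP response element, TGACGTCA, lay in those of Ier2 (at -66) and Dusp1 (at -124), against 1.83% of all promoters. An AP-1 site, TGANTCA, lay in none of the 7 windows and in 7.33% of all promoters. The promoters of Egr2 and Ier2 are printed, which are 2 of the 4 genes that stood highest on the same array below. Capitals mark the CArG box of Egr2, at chr20:21054392-21054691 on the minus strand, and the cAMP response element of Ier2, at chr19:40399123-40399422 on the plus strand.
Egr2: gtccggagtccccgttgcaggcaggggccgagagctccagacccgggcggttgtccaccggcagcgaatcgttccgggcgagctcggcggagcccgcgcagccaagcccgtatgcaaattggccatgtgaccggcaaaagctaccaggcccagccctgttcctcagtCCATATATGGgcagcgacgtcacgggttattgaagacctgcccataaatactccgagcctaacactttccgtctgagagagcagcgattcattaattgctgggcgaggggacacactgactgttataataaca
Ier2: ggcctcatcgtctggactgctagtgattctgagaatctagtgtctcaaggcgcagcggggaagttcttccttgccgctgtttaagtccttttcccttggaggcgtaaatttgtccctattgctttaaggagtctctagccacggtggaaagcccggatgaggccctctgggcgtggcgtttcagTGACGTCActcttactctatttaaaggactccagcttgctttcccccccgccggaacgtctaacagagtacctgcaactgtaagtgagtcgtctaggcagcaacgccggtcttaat

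Levels are given as log2 of the processed intensity over the array's 75th percentile. The 75th percentile lay between 856 and 1237 intensity units on the 12 arrays, the median background between 20 and 29.5, and no spot was saturated. All 10 probes were well above background on all 12 arrays. Each replicate number was 1 slide, and on a slide each group had 1 fixed position, so position and group cannot be told apart. All 7 tested cardiomyocyte markers were measured, with summed levels of 1503 to 1972 times the 75th percentile.

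No immediate early gene passed an adjusted p of 0.05 in any comparison, and neither did any of the 20020 tested probes (0% called; limma, Benjamini-Hochberg over all probes). At an unadjusted p under 0.05, 7.38% of probes passed for AngII on normal sodium, 1.80% for its effect on low sodium, 7.18% for low sodium without AngII, 11.0% for low sodium with AngII and 5.08% for the interaction of AngII and diet. Of the 10 genes, Egr1 passed this looser threshold for AngII on low sodium, and none did in the other comparisons. With the slide as a block, Egr1 also passed it for low sodium without AngII. With other processing, further genes passed the looser threshold in some comparisons, none of them after adjustment. With the authors' values these were Jun and Atf3 for low sodium without AngII, and Atf3 for the interaction. With array weights they included Egr2 and Atf3 for AngII on low sodium, and Atf3 for the interaction. Without normal sodium replicate 2, Fos passed it for AngII on normal sodium. In what follows, a difference that missed the threshold does not show that groups were alike: the 95% intervals were wide.

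Egr1 is a zinc-finger factor induced by growth and stretch signals. Its level was -0.27, -1.76 and -1.52 on the normal sodium arrays (replicates 1 to 3), and -1.45, -1.68 and -2.20 on those of normal sodium with AngII. It was 1.21, -1.10 and -0.48 on the low sodium arrays, and -1.13, -1.05 and -2.28 on those of low sodium with AngII. Low sodium replicate 1 was the highest array and low sodium with AngII replicate 3 the lowest, and the groups overlapped in every comparison. AngII on low sodium gave a log2 difference of -1.36 ± 0.59 (SE; 95% interval -2.66 to -0.07; limma, unadjusted p = 0.0412, adjusted p = 1), a 2.57-fold lower mean. Within slides this difference was -2.34, 0.05 and -1.80. It was -0.70 without low sodium replicate 1, and the unadjusted p was 0.00642 with the slide as a block (limma, adjusted p = 1). Low sodium without AngII gave 1.06 ± 0.59 (adjusted p = 0.728, limma), and the difference was above 0 on all slides, at 1.48, 0.66 and 1.04. With the slide as a block its unadjusted p was 0.0232 (limma, adjusted p = 0.51). It was 0.39 without low sodium replicate 1. AngII on normal sodium gave -0.60 ± 0.59, and -0.14 without normal sodium replicate 1.

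Egr2, its relative and a regulator of myelin genes and of lymphocyte activation, was low on 11 arrays and high on 1. The processed intensity was 316 on low sodium replicate 1 and 24.0 to 44.6 on the other 11. Its level was -1.97 on that array, -4.96 and -5.16 on the other low sodium arrays, and -5.26, -5.31 and -5.57 with AngII on low sodium. It was -4.83, -4.84 and -4.94 on normal sodium, and -5.20, -5.42 and -4.61 with AngII on that diet. The 3 arrays of low sodium with AngII lay below the 3 of low sodium, which made Egr2 the only one of the 10 genes whose groups did not overlap in a comparison; 6.23% of all probes did the same for AngII on low sodium. That difference was -1.35 ± 0.66 (limma, unadjusted p = 0.0657, adjusted p = 1), and -0.32 without low sodium replicate 1. In the other comparisons none of the 10 genes separated the groups, against 12.9% of probes for AngII on normal sodium, 10.9% for low sodium without AngII and 22.6% for low sodium with AngII. Low sodium without AngII gave 0.84 ± 0.66 for Egr2, and -0.19 without that same array.

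Fos, the founding AP-1 subunit, varied most between arrays of a group. Its level was -2.07, -4.31 and -1.60 on normal sodium, and -4.88, -3.66 and -3.32 with AngII on that diet. It was -1.60, -2.53 and -4.06 on low sodium, and -3.72, -3.30 and -2.94 with AngII on low sodium. Normal sodium replicate 3 and low sodium replicate 1 were highest, at equal levels, and both groups without AngII also held arrays near the lowest. AngII on normal sodium gave -1.29 ± 0.75 (95% interval -2.96 to 0.38; adjusted p = 0.663, limma), a 2.45-fold lower mean, with within-slide differences of -2.81, 0.66 and -1.72. AngII on low sodium gave -0.59 ± 0.75, with -2.12, -0.76 and 1.12 within slides. With 1 array left out, the first ranged from -2.12, when normal sodium replicate 2 was dropped, to -0.76, when replicate 3 of that group was, and the second was -0.02 without low sodium replicate 1. The interaction was 0.70 ± 1.07, and 0.04 without low sodium replicate 3. Low sodium with AngII against normal sodium with AngII gave 0.64 ± 0.75, above 0 on all slides (1.16, 0.36 and 0.38), and 0.17 without normal sodium with AngII replicate 1.

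Fosb followed the slide more than the group. On slide 1 its level was -0.21, 0.03, -0.35 and -0.16 for normal sodium, the same diet with AngII, low sodium and that diet with AngII, in this order. On slides 2 and 3 it lay between -1.23 and -0.48, below all 4 arrays of slide 1. Its within-group SD was 0.41, and 0.22 once the slide was a term in the fit. The named genes nearest to its pattern over the 12 arrays were Etv3 (r = 0.96), C5h9orf43 (0.95), Arnt2 (0.94) and Elf3 (0.93), each also higher on all 4 arrays of slide 1 than on the others. The group differences of Fosb were small, from -0.25 ± 0.30 for low sodium without AngII to 0.19 ± 0.30 for AngII on low sodium.

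Jun, the main partner of Fos, ranged from 0.97 (low sodium replicate 3) to 2.20 (normal sodium replicate 3). Its means were 1.80 ± 0.46 (SD, n = 3) on normal sodium, 1.72 ± 0.29 once AngII was given, 1.35 ± 0.33 on low sodium and 1.41 ± 0.23 with AngII. Both low sodium means were below both normal sodium means. The differences were -0.46 ± 0.25 (SE; limma adjusted p = 0.729) without AngII and -0.31 ± 0.25 (adjusted p = 0.681) with it, and neither passed the threshold. Their 95% intervals ran from -1.02 to 0.10 and from -0.87 to 0.25. The first was -0.26 without normal sodium replicate 3 and -0.71 without replicate 2 of that group.

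Junb, an AP-1 subunit that often restrains Jun, stood high on 2 arrays. Its level was 3.37 on low sodium replicate 1 and 3.09 on normal sodium replicate 3, against 1.70 to 2.20 on the other 10. On low sodium with AngII the 3 arrays were nearly equal, at 2.06, 2.09 and 2.07. AngII on normal sodium gave -0.40 ± 0.42 and AngII on low sodium -0.27 ± 0.42, both with overlapping groups. The first was -0.02 without normal sodium replicate 3. Ier2, a nuclear protein induced with Junb in many cells, had the same 2 arrays on top, at 3.46 and 2.99, against 2.04 to 2.70 on the rest. AngII on low sodium gave -0.45 ± 0.28 for Ier2 (limma, unadjusted p = 0.134), and -0.10 without low sodium replicate 1.

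**Figure D1:**
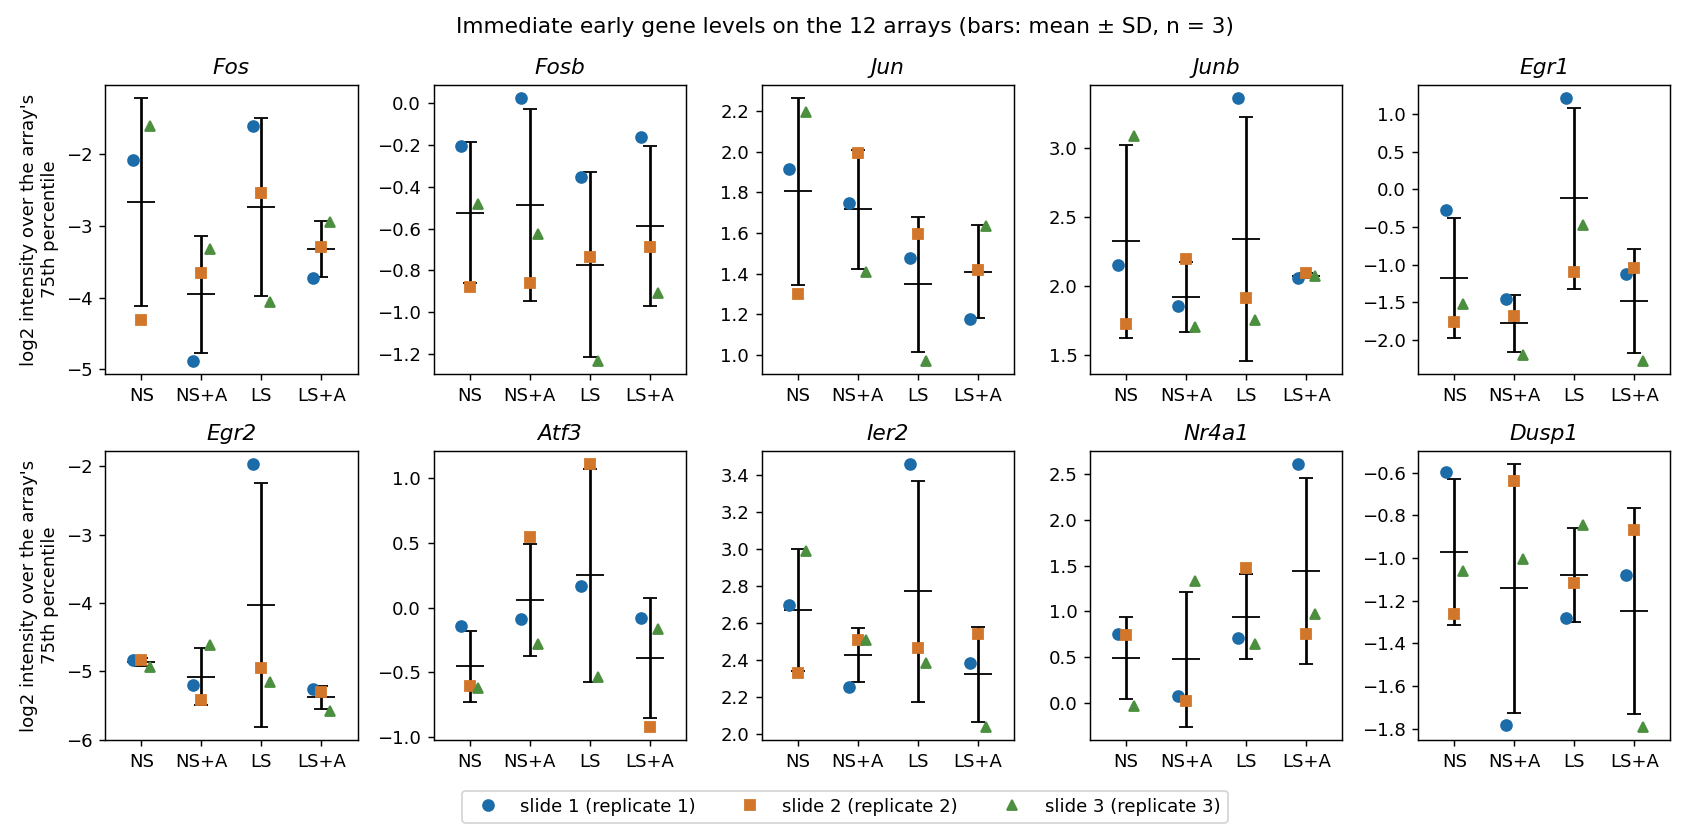
Level of each immediate early gene (y axis: log2 intensity over the array's 75th percentile) in normal sodium (NS), normal sodium with AngII (NS+A), low sodium (LS) and low sodium with AngII (LS+A); points are arrays, marked by slide, and bars are the mean ± SD of 3. Egr1, Egr2, Junb and Ier2 are highest on the slide 1 array of low sodium, Nr4a1 on that of low sodium with AngII, and Fosb is higher on all 4 arrays of slide 1.

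Atf3, a bZIP factor of the stress response that acts mainly as a repressor, was -0.14, -0.60 and -0.62 on normal sodium and -0.09, 0.55 and -0.28 with AngII. It was 0.17, 1.11 and -0.53 on low sodium and -0.08, -0.92 and -0.17 with AngII. Low sodium replicate 2 was highest and low sodium with AngII replicate 2, on the same slide, was lowest. AngII gave 0.51 ± 0.39 on normal sodium and -0.64 ± 0.39 on low sodium. The interaction, which tests the difference between these, was -1.15 ± 0.55 (limma, unadjusted p = 0.0616, adjusted p = 0.848). Slide 2 held nearly all of it: the within-slide interactions were -0.30, -3.18 and 0.03. Without slide 2 the difference for AngII on low sodium was 0.06. Low sodium gave 0.70 ± 0.39 without AngII, and 0.27 without low sodium replicate 2. With AngII it gave -0.45 ± 0.39, and -0.18 without low sodium with AngII replicate 2.

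Nr4a1, an orphan nuclear receptor induced by catecholamines and cAMP, was 0.75, 0.74 and -0.02 on normal sodium and 0.08, 0.03 and 1.33 with AngII. It was 0.71, 1.48 and 0.64 on low sodium and 2.61, 0.75 and 0.97 with AngII. Low sodium with AngII replicate 1 stood 2.19-fold above the next array, while the lowest was a normal sodium array. Low sodium with AngII against normal sodium with AngII gave 0.97 ± 0.51 (95% interval -0.15 to 2.08; limma adjusted p = 0.512), and 0.38 without low sodium with AngII replicate 1. Low sodium without AngII gave 0.45 ± 0.51, and 0.18 without low sodium replicate 2. AngII gave 0.50 ± 0.51 on low sodium, and -0.08 without low sodium with AngII replicate 1. On normal sodium it gave -0.01 ± 0.51, so the interaction of 0.52 ± 0.72 also turned to -0.07 without that array.

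Dusp1, the phosphatase that switches MAP kinases off again, had means of -0.97 ± 0.34 (SD, n = 3) on normal sodium, -1.14 ± 0.58 once AngII was given, -1.08 ± 0.22 on low sodium and -1.25 ± 0.48 with AngII. Its 4 group differences lay between -0.17 and -0.10, each with an SE of 0.32, and the groups overlapped in all of them. The order of the means from group to group was within the spread of the arrays.

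Over the 10 genes, the median log2 difference was -0.19 for AngII on normal sodium (8 of 10 below 0), against -0.01 over all probes, and -0.36 for AngII on low sodium (7 of 10 below 0), against 0.00 over all probes. Without low sodium replicate 1 the second was -0.06. The first was -0.09 without normal sodium replicate 1 and -0.33 without replicate 2 of that group. Normal sodium replicate 1 stood apart: all 10 genes were above their own median there. Of all probes, 25.4% were highest on it and 16.7% lowest. It had 88 non-uniform spots, the most of the 12 arrays, and its estimated array weight, 0.245, was the lowest. On normal sodium the median was -0.40, 0.33 and -0.31 within slides 1 to 3, and on low sodium -0.69, -0.06 and 0.32. The sign thus differed between slides for both. For low sodium the median was 0.06 without AngII (-0.22 without low sodium replicate 1, 0.46 without low sodium replicate 3) and -0.10 with AngII, against -0.02 and -0.01 over all probes. The median of the interaction was 0.07. The comparisons share groups, so their medians are not independent of each other.

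**Figure D2:**
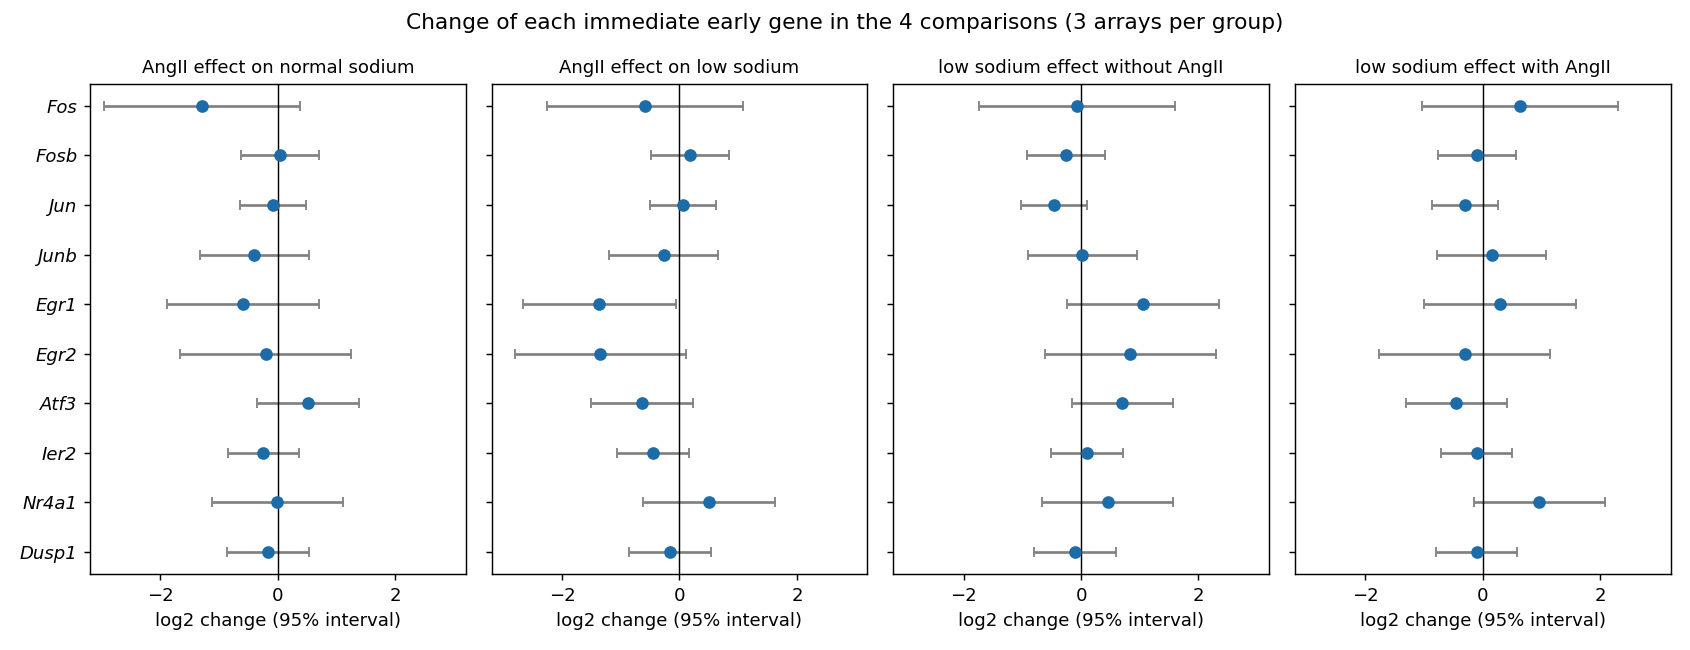
Log2 difference of each immediate early gene with its 95% interval (x axis) in the 4 comparisons of 3 arrays against 3. All intervals cross 0 except that of Egr1 for AngII on low sodium, -2.66 to -0.07, which did not pass after adjustment.

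The spread between arrays of the same group was where the 10 genes stood out from most probes. Their within-group SD had a median of 0.56 on the log2 scale, against 0.22 over all tested probes, and all 10 were above that 0.22. Fos (1.06), Egr2 (0.92), Egr1 (0.82) and Nr4a1 (0.70) were above the 95th percentile of all probes, 0.695. Junb had 0.58, Atf3 0.54, Dusp1 0.43, Fosb 0.41, Ier2 0.37 and Jun 0.34. Spread can depend on level, so the tested probes were cut into 10 bins by mean level and each gene was ranked within its own bin. There Fos was at percentile 99.4, Egr1 at 98.9, Nr4a1 at 98.8, Junb at 98.7, Atf3 at 97.9 and Ier2 at 95.5, and Dusp1, Fosb and Jun lay between 90.9 and 93. Egr2, whose probe was dim on all arrays but 1, was at 92.7. Single arrays carried part of this spread: without low sodium replicate 1 the SD was 0.25 for Egr2, 0.24 for Ier2 and 0.40 for Junb, while it was 1.00 for Fos. Without it 2 genes, not 4, were above the 95th percentile. Nr4a1 had 0.53 without low sodium with AngII replicate 1.

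**Figure D3:**
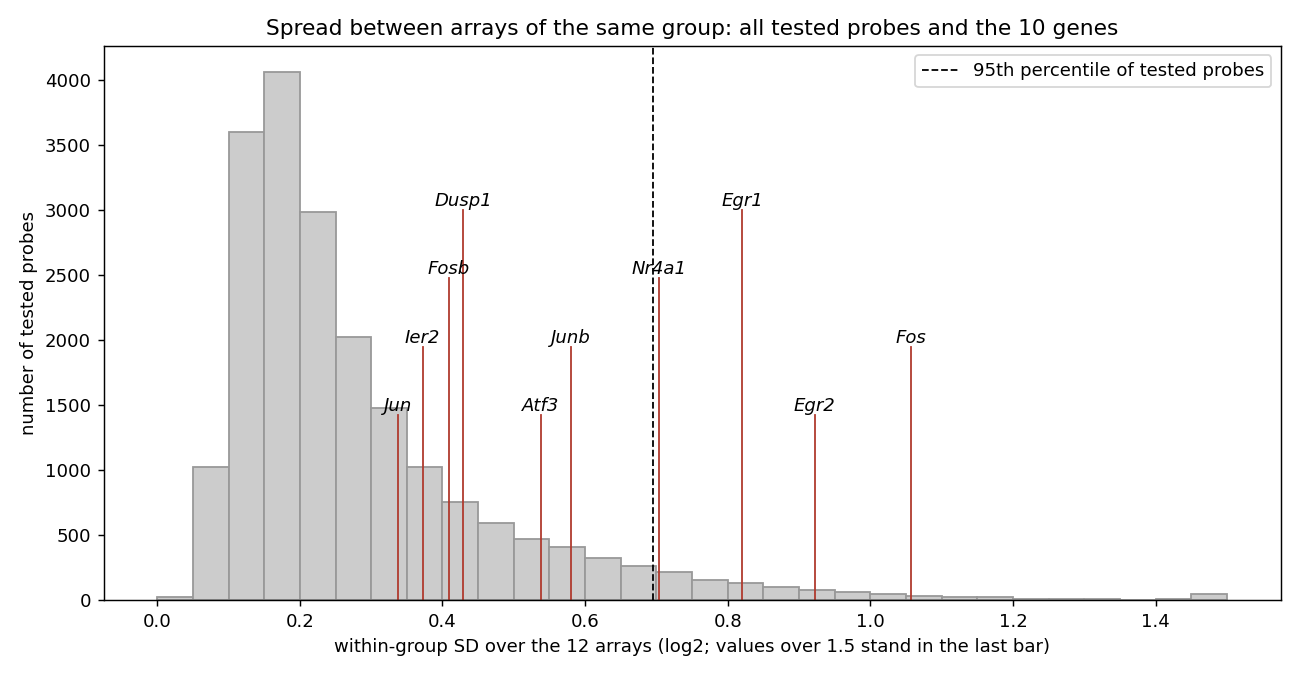
Number of tested probes (y axis) by within-group SD over the 12 arrays (x axis, log2), with a red line at each immediate early gene; line heights only separate the names. All 10 lie right of the median of 0.22, and Nr4a1, Egr1, Egr2 and Fos lie beyond the dashed 95th percentile at 0.695.

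Low sodium replicate 1 was the highest array for 4 of the 10 genes (Junb, Egr1, Egr2 and Ier2), against 4.1% of all tested probes, and the second highest for Fos. Genes were then ranked by the gap between this array and the next highest one. Of 11167 genes measured on all arrays, Egr2 ranked 1 (2.64, a 6.25-fold gap) and Egr1 ranked 3 (1.48, 2.79-fold). Ranks 4, 5 and 7 were held by Cd79b (1.28), Spib (1.26) and Pou2af1 (0.93). These are a B-cell receptor chain and 2 B-cell transcription regulators, and they were seen by their values, not listed beforehand. Cd79b was -3.23 on this array and between -6.22 and -4.52 on the others. On the next highest arrays of Egr1, normal sodium replicate 1 and low sodium replicate 3, Cd79b was -5.55 and -5.88.

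The summed level of the lymphocyte list, 3 of whose 6 markers were tested, was 1.66 on low sodium replicate 1. It ranged from 1.62 to 2.27 on normal sodium, 1.55 to 1.72 with AngII, 1.09 to 1.66 on low sodium and 1.09 to 1.80 with AngII. Cd3e, the T-cell receptor subunit, was not well above background. The summed list was not highest on the array where these B-cell genes were. On that array most of the sum came from Nkg7 (level 0.16) and Cd3d (-1.40), genes of NK and T cells. The sum therefore cannot show whether B-cell RNA was higher there. The part of lymphocytes in the Egr values was not tested.

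Normal sodium replicate 3 was the highest array for Fos and Jun and the second for Junb and Ier2. The named genes with the largest gaps between this array and the next highest were Alb (3.06), Rnf126 (2.51), Pced1b (2.5), Lipn (2.24), Itih4 (2.06), Hp (1.86) and Upk1b (1.70). Alb, Itih4 and Hp encode plasma proteins made mainly by liver. The summed levels of the lymphocyte list (2.27) and of 3 tested neutrophil markers (0.61, against 0.15 to 0.44 on the others) were highest there too. In a bulk sample, more cells of a type and more RNA per cell cannot be told apart, and the part of either in the AP-1 values was not tested.

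Low sodium with AngII replicate 1, where Nr4a1 was highest, was also the highest array for its paralogues Nr4a2 (0.63, against -0.87 to 0.03 on the others) and Nr4a3 (-2.28, against -5.85 to -2.90). Sik1, a kinase gene that cAMP induces, was highest there as well (-1.62). Over the 12 arrays the named genes nearest to Nr4a1 were Itgb3bp (r = 0.87), Nr4a2 (0.84), Tafa5 (0.82), Irs2 (0.82), Lrp3 (0.81) and Sik1 (0.81). Genes with larger gaps on this array were Chad, Serpina3n, Lpp, Prx and Dpp6, of which Prx is a myelin gene of peripheral nerve. Nr4a1 ranked 6 of 11167.

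Atf3 ran with interferon-response genes. The named genes nearest to it were Ly6c (r = 0.91), Oas1k (0.86), Ifit3 (0.86), Oas1i (0.85) and Isg20 (0.80), and with group means removed these values were 0.89, 0.84, 0.82, 0.81 and 0.83. Ifit3, an antiviral effector, was -0.85 on low sodium replicate 2 and -0.74 on normal sodium with AngII replicate 2, its highest arrays, and -2.39 on low sodium with AngII replicate 2. The same 3 arrays were the top 2 and the lowest for Atf3, but Ifit3 was lowest on normal sodium replicate 2 (-2.53). Ly6c and Oas1i also had these top 2 arrays. Oas1k was instead highest on low sodium replicate 1 (-0.55) and Isg20 on normal sodium replicate 1 (-0.46). These are the highest correlations out of all genes compared, so they are given as a description.

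**Figure D4:**
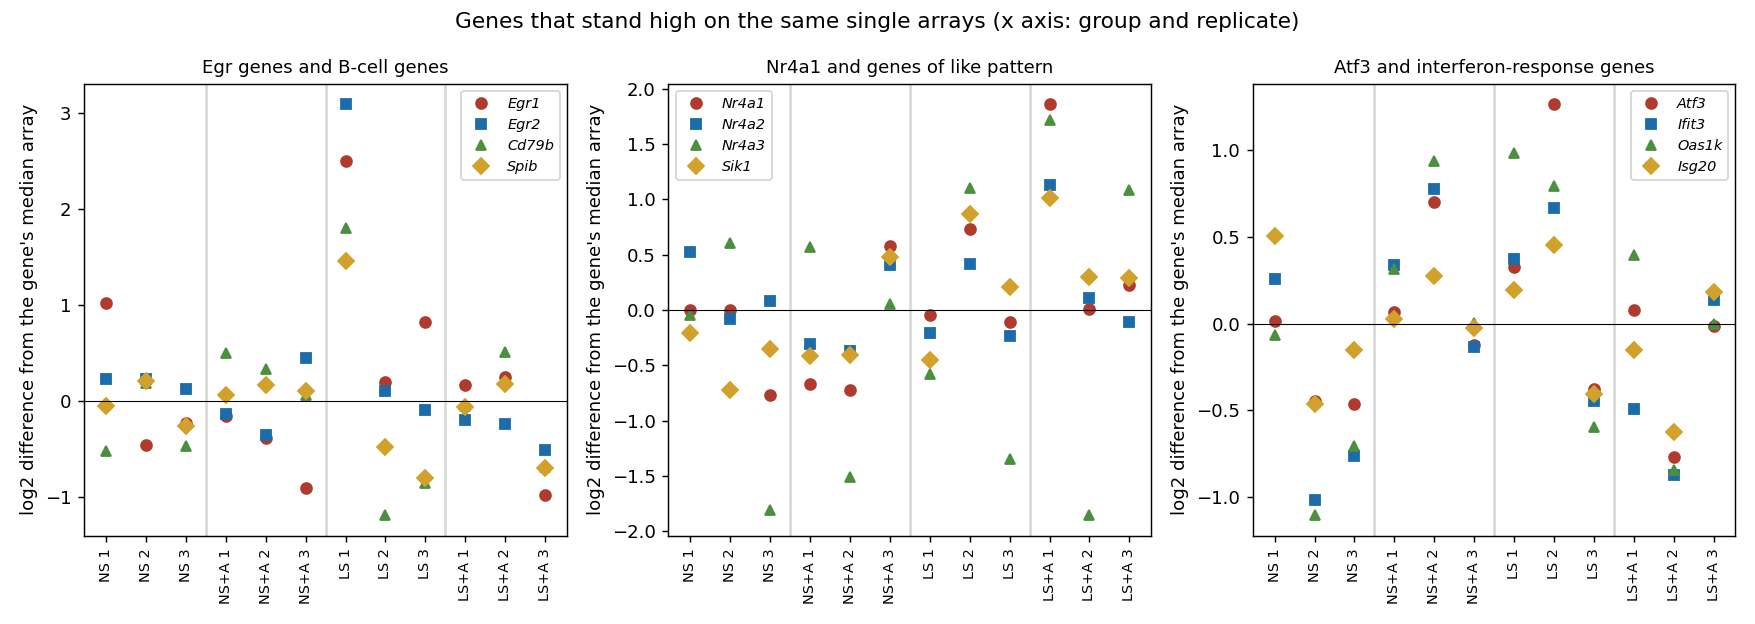
Difference of each array from the gene's median array (y axis, log2) for Egr1 and Egr2 with the B-cell genes Cd79b and Spib, Nr4a1 with Nr4a2, Nr4a3 and Sik1, and Atf3 with Ifit3, Oas1k and Isg20; the x axis gives group (NS normal sodium, LS low sodium, +A with AngII) and replicate. The left genes peak on low sodium replicate 1, the middle genes on low sodium with AngII replicate 1, and the right genes vary together over all 12 arrays. Cd79b and Spib were picked by their gap on low sodium replicate 1, and Ifit3, Oas1k and Isg20 by their correlation with Atf3.

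Among the 10 genes, 33 of 45 pairs had a Pearson r above 0 over the 12 arrays. The pairs with the smallest p in a permutation test were Fos with Junb (r = 0.76, p = 0.0016, adjusted over the 45 p = 0.052; Spearman correlation 0.71, p = 0.013) and Junb with Ier2 (r = 0.87, p = 0.0023, adjusted p = 0.052; Spearman correlation 0.69, p = 0.016). A second draw of the permutations gave both an adjusted p of 0.045, so they lie at the threshold. The permutations shuffled all 12 arrays freely, although these share groups and slides, so the p-values do not allow for that structure. With group means removed, r was 0.73 for Fos with Junb and 0.89 for Junb with Ier2. No Spearman correlation passed; those of both pairs had an adjusted p of 0.24 by the permutation test. Low sodium replicate 1 and normal sodium replicate 3 were the arrays farthest from the median of Junb. Without them r was 0.47 for Fos with Junb and 0.22 for Junb with Ier2. Both Pearson values thus depended in part on those arrays, that of Junb with Ier2 more. Egr1 and Egr2 had r = 0.76 (Spearman correlation 0.32), and -0.09 without the 2 arrays farthest from the median of Egr1.

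Of 11201 genes, those most like the mean pattern of the 10 were Abra (r = 0.84 over 12 arrays), Plac8 (0.82), Wfdc21 (0.82), Rab19 (0.81), Dhrs4 (0.79), Zfp26 (0.79), Itgad (0.79) and Icam5 (0.78). Abra encodes an actin-binding protein of striated muscle. It was 3.82 on normal sodium replicate 1 and 3.63 on low sodium replicate 1, its highest arrays, and 1.96 on low sodium replicate 3, its lowest. Wfdc21 was well above background on 5 arrays only.

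The rest of the early response was taken in lists. None of 9 other AP-1 and partner genes, 5 other Egr and Nr4a genes with Egr corepressors, 16 other rapidly induced regulators, 25 feedback inhibitors and stress effectors, 11 secreted and other effectors or 18 upstream kinases and factors passed the threshold in any of the 5 comparisons (limma). Neither did any of 8 heat shock genes. The list medians lay between -0.33 and 0.27, both extremes for the interaction.

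By unadjusted p, the comparisons of diet gave the smallest values in these lists. Ier5, a nuclear relative of Ier2, was 2.23, 1.99 and 2.16 on normal sodium and 1.66, 1.58 and 1.19 on low sodium, without overlap. Of all probes, 10.9% also separated these groups. The Ier5 difference was -0.65 ± 0.13 (limma, unadjusted p = 0.000557, adjusted p = 0.464). Plk2, a polo-like kinase, gave -0.72 ± 0.16 without AngII (adjusted p = 0.537, limma) and -0.66 ± 0.16 with AngII (adjusted p = 0.306). All 6 of its low sodium arrays, at -2.00 to -1.58, were below its 6 normal sodium arrays, at -1.39 to -0.91. The share of all probes that did so was not computed. For diet alone, 10.9% separated the groups without AngII and 22.6% with AngII. Arc, a synaptic early gene, gave 0.92 ± 0.24 for low sodium without AngII. Its levels were -2.32 to -2.03 on normal sodium and -1.60 to -0.74 on low sodium, a separation that the same 10.9% of probes showed.

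Klf6, a zinc-finger factor, gave -0.52 ± 0.12 for low sodium with AngII (limma adjusted p = 0.306). One of its normal sodium values was left out as an outlier spot, which this comparison does not use. Srf, the factor that binds CArG boxes, gave 0.49 ± 0.17 in the same comparison (adjusted p = 0.357) and 0.33 ± 0.17 without AngII. For AngII on normal sodium the leading genes were Mafk (0.58 ± 0.18), Klf2 (0.57 ± 0.19) and Rhob (0.64 ± 0.18), each at an adjusted p of 0.65. The within-group SD of 83 such genes measured on all arrays had a median of 0.30, and 58 of them were above the 0.22 of all probes. Nr4a3 had the largest, 1.41.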

How the data were processed

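Scanner files of 12 one-colour arrays were used. Per the file headers, intensities are background-subtracted processed signals from Agilent Feature Extraction 10.7.3.1; the submitters' processing notes name Feature Extraction 11.0.1.1, R 3.3.04 and limma. A deposited table of the authors' log2 values served as an alternative. Control spots and outlier flags were left out, spots of a probe averaged, and log2 taken over each array's 75th percentile. The 20020 probes well above background on all 3 arrays of a group (at least 0.5 of their spots) were fitted over the 4 groups with limma 3.58.1 (R 4.3.3), adjusted by Benjamini-Hochberg over all probes, and checked on simulated data. Where a gene had several tested probes, the brightest stands for it. Promoters came from RefSeq. The 10 genes and all lists were chosen with earlier results of these data known. All 10 are named; other lists give the genes with the smallest p. Genes near a member or standing apart on an array were picked after their values were seen. One gene is not reported here.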

Additional observations from a re-analysis of the deposited data

How the results depend on the processing

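No immediate early gene was called under any of 25 alternatives (background, normalization, filter, the authors' values, array weights, slides or arrays left out); 2 of these, scaling over spots and leaving out low sodium replicate 1 with normal sodium replicate 3, were chosen after seeing the data. Of 23 differences of at least 0.4, 14 kept their sign in all 25. The cause of a changed sign was not tested, beyond the arrays left out.

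Array weights gave a median of the 10 genes of 0.12 for low sodium with AngII and -0.111 for the interaction, and -0.105 for Nr4a1 in the interaction. The number of genes above the 95th percentile of SD, 4 as reported, was 1 without the filter on dim probes, 5 with the authors' values and with probes measured on all 12 arrays, and 6 with the normexp background and with the replicate block. Without slide 1, AngII on low sodium gave 0.18 for Fos and -0.196 for Nr4a1, low sodium without AngII -0.171 for Egr2, and the interaction -0.512 for Nr4a1 and -0.119 for the median. Without slide 2, Atf3 gave 0.058 for AngII on low sodium and 0.061 for low sodium with AngII. Without slide 3, Junb gave 0.088 for AngII on normal sodium, Fos -0.366 in the interaction, and the medians were 0.573 for low sodium without AngII and -0.433 for the interaction. Without low sodium replicate 1 and normal sodium replicate 3, Egr2 gave -0.222 for low sodium without AngII, Egr1 0.071 in the interaction, and 2 genes were above the 95th percentile of SD.

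Leaving out 1 array at a time, Nr4a1 ranged from -0.079 to 0.849 for AngII on low sodium and from -0.067 to 0.939 in the interaction, and Egr2 from -0.189 to 1.406 for low sodium without AngII. The medians ranged from -0.161 to 0.111 for low sodium with AngII and from -0.148 to 0.239 for the interaction, and 2 to 4 genes were above the 95th percentile of SD.

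Samples of the same replicate number, which share a slide, deviated together in 17 of 18 pairs (r from 0.047 to 0.432), not in all above 0.1. With the replicate block, differences were as without it and no gene was called (0 of 10), but the unadjusted limma p of Egr1 was 0.00642 in place of 0.0412 for AngII on low sodium and 0.0232 in place of 0.0995 for low sodium without AngII (adjusted p = 1 and 0.51); the within-group SD was 0.586 in place of 0.82 for Egr1. The normexp background gave an SD of 0.692 for Fos and 0.549 for Egr2, whose dim signals limit their precision.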
